A study of Mus musculus with 12 samples.

Results

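The 10 genes described here are 6 genes of the transcription factor AP-1 (Jun, Junb, Jund, Fos, Fosb and Fosl2) and 4 other early response genes (Ier2, Ier5, Klf6 and Btg2), taken by their symbols from the 13207 genes of the deposited expression table. All 10 were measured in every library and all 10 passed the filter on low values. They were followed over 12 RNA sequencing libraries of CD4+ T cells sorted from the thymus of C57BL/6 mice, 7 days after tamoxifen was injected at 10 μg per g. The labels give no age and name no allele or Cre driver, so the cells in which the tdTomato time stamp could be switched on are not stated. All 4 groups, of 3 libraries each, come from tamoxifen-treated mice. CD73+ Treg were sorted as tdTomato+GFP+CD73+ and CD73- Treg as tdTomato+GFP+CD73-, both being newly generated regulatory T cells. The tdTomato- Treg were sorted as tdTomato-GFP+ and were not divided by CD73. Newly generated conventional T cells (Tconv) were sorted as tdTomato+GFP-CD73-. Each library carries a replicate letter, A, B or D, and the labels do not say what the letter stands for (a mouse, a sort or a day). Nor do they tie libraries to different animals, so a p-value here measures library-to-library spread, and some of that spread may be technical.

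AP-1 is a dimer of basic leucine zipper proteins. Jun proteins pair with each other or with Fos proteins, Fos proteins need a Jun partner, and the dimers bind short DNA elements near genes of growth, activation and stress. In T cells the antigen receptor switches the genes on within minutes through MAP kinases, and AP-1 then acts with NFAT at cytokine genes. The same genes are known to respond to stress, warming and enzymatic or mechanical handling of tissue, so their level in sorted cells can reflect the time between the animal and lysis as well as the state of the cells.

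The libraries held 11000000 to 21400000 effective counts each, and the log2 CPM (log2 of counts per scaled library) of 3 counts lay between −2.61 and −1.65. The lowest value of any of the 10 genes was 4.33, or about 430 counts, and the highest was 9.55, or about 12069 counts. Lars2 alone took 16.1% to 32.4% of the CPM of a library, with the lowest share in the letter B library in 3 of the 4 groups and the highest in the letter D library in 2. Foxp3, the lineage factor of regulatory T cells, averaged 9.19, 9.16 and 9.11 log2 CPM in CD73+, CD73- and tdTomato- Treg, against 0.18 in Tconv. Cd4 was between 8.42 and 9.28 in the 4 groups, and Nt5e, the gene of CD73, averaged 7.29 with the CD73+ gate and 5.54 with the CD73- gate among Treg. The groups thus carried the markers they were sorted by. One library stood apart in thymocyte markers. In CD73- Treg of letter B Cd8a was 2.85 and Rag1, the recombinase gene of immature thymocytes, was 4.75 log2 CPM, against 0.68 and 0.75 for Cd8a and 2.72 and 2.70 for Rag1 in CD73- Treg of letters A and D. The CD73+ and CD73- Treg are in one table and the tdTomato- Treg and Tconv in another, which the authors scaled separately, so tests were made within a table and levels set across tables are a description.

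The genes are short and 5 of them (Jun, Junb, Jund, Ier2 and Ier5) have a single exon. In GENCODE M21 (GRCm38), Jun (ENSMUSG00000052684.4) lies at chr4:95049034-95052222 on the minus strand, Junb (ENSMUSG00000052837.6) at chr8:84974484-84978718 on the minus strand and Jund (ENSMUSG00000071076.6) at chr8:70698949-70700616 on the plus strand. Fos (ENSMUSG00000021250.13) is at chr12:85473890-85477273 on the plus strand, Fosb (ENSMUSG00000003545.3) at chr7:19302696-19310051 on the minus strand and Fosl2 (ENSMUSG00000029135.10) at chr5:32135801-32157842 on the plus strand. Ier2 (ENSMUSG00000053560.5) is at chr8:84661331-84662852 and Ier5 (ENSMUSG00000056708.5) at chr1:155096361-155099636, both on the minus strand. Klf6 (ENSMUSG00000000078.7) is at chr13:5861482-5870394 on the plus strand and Btg2 (ENSMUSG00000020423.6) at chr1:134075170-134079120 on the minus strand. The annotated span of the antisense gene Junos overlaps that of Jun over 689 bases. The span of Gm11175 overlaps that of Jund over 919 bases, and the span of Prdx2 that of Junb over 351 bases, from the other strand. Exons were not compared, and whether the counting used strand is not stated, so it is not known whether reads in those stretches can be told apart.

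Shown here are the 180 bases before the start sites of the 6 members in which a searched motif was found. They are from RefSeq on GRCm38.p6, read 5′ to 3′ on the gene's strand. Of the 10 members, 9 are in the RefSeq promoter table. The motifs searched on both strands were TGACATCA and TTACCTCA (AP-1 and ATF type elements known from the Jun promoter), TGACGTCA (the cyclic AMP response element), its shorter form TGACG, and the AP-1 element TGANTCA. Capitals mark the matches.
Jun, chr4:95052223-95052402, minus strand: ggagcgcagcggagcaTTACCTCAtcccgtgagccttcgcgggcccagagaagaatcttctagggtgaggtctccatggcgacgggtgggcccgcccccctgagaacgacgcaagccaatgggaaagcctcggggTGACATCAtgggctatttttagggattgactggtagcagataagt
Klf6, chr13:5861309-5861488, plus strand: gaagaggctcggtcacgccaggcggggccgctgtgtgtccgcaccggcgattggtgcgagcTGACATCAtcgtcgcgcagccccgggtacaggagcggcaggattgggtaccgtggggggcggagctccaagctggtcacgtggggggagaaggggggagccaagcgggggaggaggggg
Fos, chr12:85473710-85473889, plus strand: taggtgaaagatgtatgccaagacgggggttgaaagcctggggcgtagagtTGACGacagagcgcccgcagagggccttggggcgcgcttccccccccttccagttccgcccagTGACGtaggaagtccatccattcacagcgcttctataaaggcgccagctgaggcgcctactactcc
Fosb, chr7:19310046-19310225, minus strand: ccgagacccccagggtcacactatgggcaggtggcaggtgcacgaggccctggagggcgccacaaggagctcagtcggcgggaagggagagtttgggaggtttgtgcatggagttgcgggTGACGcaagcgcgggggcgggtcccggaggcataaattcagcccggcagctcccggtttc
Junb, chr8:84978749-84978928, minus strand: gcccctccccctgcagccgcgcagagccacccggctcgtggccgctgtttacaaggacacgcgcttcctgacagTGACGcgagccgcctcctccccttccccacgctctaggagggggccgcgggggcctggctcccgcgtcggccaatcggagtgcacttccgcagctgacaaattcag
Btg2, chr1:134079156-134079335, minus strand: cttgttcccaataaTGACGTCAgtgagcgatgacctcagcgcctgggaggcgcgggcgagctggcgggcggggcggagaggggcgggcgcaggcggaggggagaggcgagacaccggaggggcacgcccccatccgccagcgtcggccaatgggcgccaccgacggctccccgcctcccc

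TGACATCA was found 45 bases before the start of Jun and 119 bases before that of Klf6, and 2.51% of 32851 promoters of the same window length hold it. TTACCTCA was found 164 bases before the Jun start, and 0.545% of promoters hold it. Both elements were already known from the Jun promoter, so finding them in Jun is no test. The full TGACGTCA was found in Btg2 alone among the members, 166 bases before its start, against 1.45% of promoters. TGACG was found in Fos (129 and 66 bases before the start), Fosb (60 bases) and Junb (106 bases), and inside the TGACGTCA of Btg2, and 14.8% of promoters hold it. No member had TGANTCA, which 4.97% of promoters hold. The windows of Jund, Fosl2 and Ier5, which are not shown, held none of these letters. Matches and their absence describe a window and say nothing of binding.

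All 10 genes had their highest mean in tdTomato- Treg, and 8 had their lowest in Tconv. The exceptions were Junb and Ier2, which had their lowest mean in CD73- Treg. These orders span both tables. Per kb of exon, Junb was the highest of the 10 in every group, at 6.83 in CD73+ Treg, 6.66 in CD73- Treg, 7.51 in tdTomato- Treg and 6.87 in Tconv (mean log2 CPM per kb). Fosl2, which has long exons, was the lowest in every group, at 2.92, 2.95, 3.04 and 2.43 log2 CPM per kb in the same groups. Jun moved most in rank, being at place 2 of the 10 in tdTomato- Treg (7.28 log2 CPM per kb) and at place 7 in Tconv (5.04), while Fosb had 5.94 in tdTomato- Treg and 2.75 in Tconv.

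**Figure D1:**
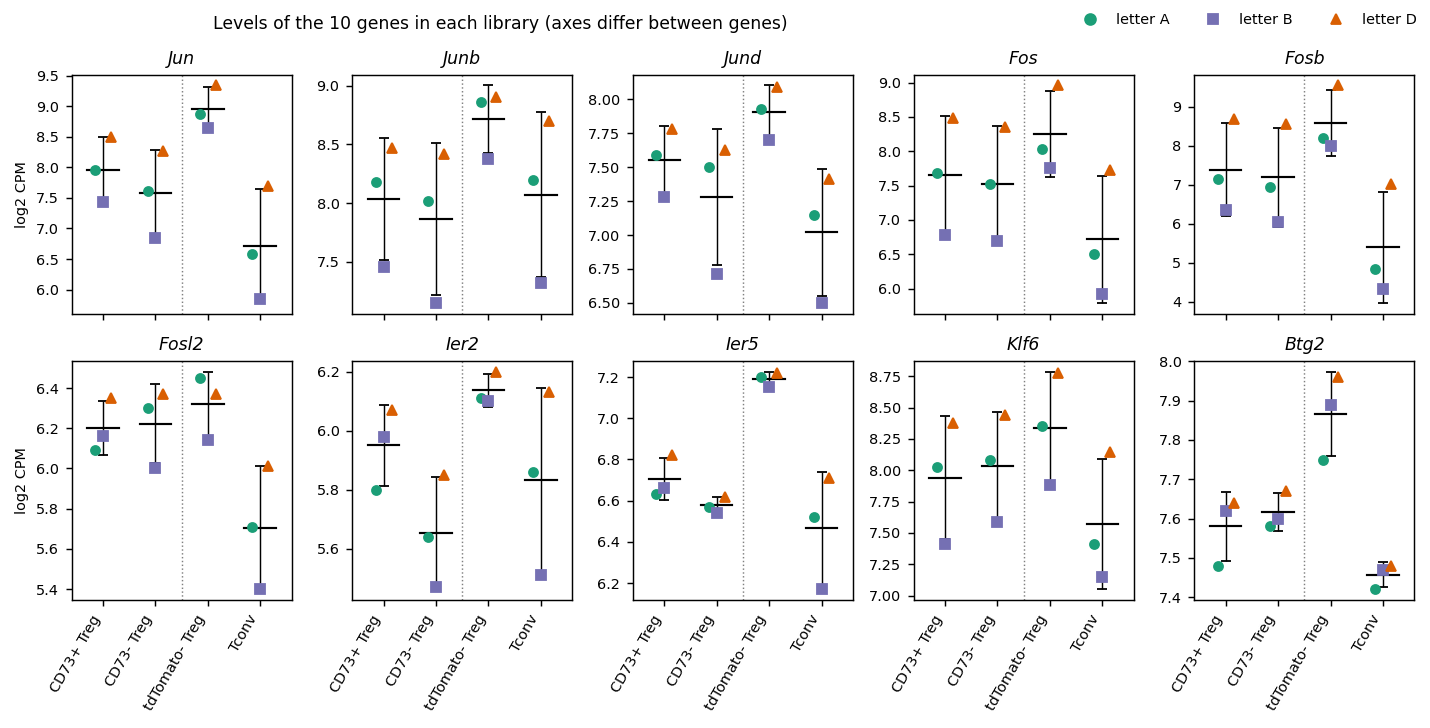
Log2 CPM of the 10 genes in each library (vertical axes, which differ between genes) for the 4 sorted groups, with letters A, B and D as circles, squares and triangles, the group mean as a bar with its SD over 3 libraries, and a dotted line between the separately scaled tables. In 9 of the 10 panels the letter D library is the highest of its group in all 4 groups, and all 10 genes have their highest group mean in tdTomato- Treg.

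The first comparison asks whether newly generated Treg that carry CD73 differ in these genes from those that do not. None of the 10 genes passed the threshold in the fit without the letter (limma, adjusted p under 0.05), where 2.47% of all 11170 genes did. At an unadjusted p under 0.05 there was 1, Ier2, where 17.2% of all genes were. Their median log2 fold change was 0.15, beside 0.0067 over all genes. In the authors' deposited table none of the 10 passed either, where 151 of 12660 genes did. With the letter as a replicate block 1 passed, Ier2, where 5.89% of all genes did. The SE and p-values given gene by gene below are from the fit without the letter, which counts letter differences as spread.

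Among the Jun genes, Jun, the founding AP-1 subunit, had a log2 CPM of 7.96, 7.43 and 8.49 in CD73+ Treg of letters A, B and D, against 7.61, 6.84 and 8.27 in CD73- Treg. The groups overlapped, with letter B lowest and letter D highest on both sides (log2 fold change 0.39, SE 0.38, adjusted p = 0.65). Junb, which often acts against Jun in proliferation, was 8.18, 7.46 and 8.47 in CD73+ Treg and 8.02, 7.15 and 8.42 in CD73- Treg (0.17, SE 0.32, adjusted p = 0.83). Jund, the most constant of the Jun proteins in resting cells, was 7.59, 7.28 and 7.78 in CD73+ Treg and 7.50, 6.71 and 7.63 in CD73- Treg (0.27, SE 0.22, adjusted p = 0.56). Each of the 3 genes was higher in CD73+ Treg within every letter, by between 0.05 (Junb, letter D) and 0.59 (Jun, letter B) on the log2 scale.

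Fos and Fosb, which need a Jun partner to bind DNA, showed the widest spread. Fos was 7.69, 6.78 and 8.49 in CD73+ Treg of letters A, B and D, against 7.53, 6.69 and 8.36 in CD73- Treg (0.13 on the log2 scale, SE 0.47, adjusted p = 0.92). Fosb was 7.14, 6.34 and 8.69 in CD73+ Treg, against 6.95, 6.05 and 8.57 in CD73- Treg (0.20, SE 0.68, adjusted p = 0.91). Both genes were higher in CD73+ Treg within all 3 letters, yet the letters spread them so widely within each group that the SE exceeded the difference. Fosl2, which encodes the Fos-related protein Fra-2, was 6.09, 6.16 and 6.35 in CD73+ Treg and 6.30, 6.00 and 6.37 in CD73- Treg (−0.02, SE 0.13, adjusted p = 0.95), with no common direction over the letters.

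Ier2 and Ier5, which encode small nuclear proteins of the immediate early response, lay closer together. Ier2 was 5.80, 5.98 and 6.07 in CD73+ Treg and 5.64, 5.47 and 5.85 in CD73- Treg, higher in CD73+ Treg within all 3 letters (log2 fold change 0.30, SE 0.12, unadjusted p = 0.0284, adjusted p = 0.23). Ier5 was 6.63, 6.66 and 6.82 in CD73+ Treg and 6.57, 6.54 and 6.62 in CD73- Treg (0.13, SE 0.10, adjusted p = 0.53). It was the only member whose groups did not overlap, and 10% of all genes were higher without overlap. Klf6, a zinc finger transcription factor, was 8.03, 7.41 and 8.38 in CD73+ Treg and 8.08, 7.59 and 8.44 in CD73- Treg, lower in CD73+ Treg within all 3 letters (−0.10, SE 0.27, adjusted p = 0.89). Btg2, an antiproliferative protein that promotes messenger RNA decay, was 7.48, 7.62 and 7.64 in CD73+ Treg and 7.58, 7.60 and 7.67 in CD73- Treg (−0.04, SE 0.06, adjusted p = 0.80).

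In all, 7 of the 10 genes were higher in CD73+ Treg within all 3 letters, beside 20.4% of all genes. With the letter as a replicate block, which removes what libraries of a letter share, Ier2 passed (log2 fold change 0.30, adjusted p = 0.0474), where 5.89% of all genes did. Jund and Jun came close (adjusted p = 0.0609 and 0.0681), and the other 7 members had an adjusted p of 0.31 or more. In a fit added after seeing the data, with the block and without CD73- replicate B, none of the 10 passed, and Ier2 had a log2 fold change of 0.26 (adjusted p = 0.16). With no block and without that library, Jun was 0.02, Jund −0.015 and Ier2 0.21. The summed CPM of 11 myeloid and dendritic markers was 42.4 to 49.3 in CD73+ Treg and 33.2 to 52.9 in CD73- Treg, and that of 10 CD8 and double-positive thymocyte markers was 215 to 234 in CD73+ Treg and 267 to 350 in CD73- Treg, highest in replicate B. Themis made up 74.8% to 79.8% of the thymocyte sum in CD73+ Treg and 69.1% to 83.4% in CD73- Treg. Of the thymocyte markers tested, 1 was called higher in CD73+ Treg and 2 lower. The part of these cells in the values was not tested.

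The second comparison sets tdTomato- Treg, which lack the time stamp, against newly generated Tconv. These groups differ in lineage, in label and in the CD73 gate, whose parts cannot be told apart. Of the 10 genes 8 rose and none fell. The threshold was passed by 52.1% of all 11198 genes, with 26.4% up and 25.7% down. Junb and Ier2 did not pass in this fit, which had no term for the letter, and the fit with that term is given in the closing part. The median log2 fold change of the 10 was 0.75, beside −0.0067 over all genes, and in 7 of them every tdTomato- library was above every Tconv library, beside 30.5% of all genes. All 10 were higher in tdTomato- Treg within all 3 letters, as were 35.4% of all genes. In the authors' deposited table all 10 pass an adjusted p under 0.05, as do 6558 of its 12957 genes. As these are bulk samples, fewer cells of a type and less RNA per cell cannot be told apart.

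Fosb had the largest difference of the 10. Its log2 CPM was 8.21, 8.0 and 9.55 in tdTomato- Treg of letters A, B and D, against 4.84, 4.33 and 7.02 in Tconv. The lowest tdTomato- library was above the highest Tconv library, and the letter D library was the highest on both sides (log2 fold change 3.19, SE 0.69, adjusted p = 0.000977, a 9.13-fold difference). Without Tconv replicate D the log2 difference was 4.0. Within letters A, B and D the difference was 3.37, 3.67 and 2.53. Fos was 8.04, 7.76 and 8.96 in tdTomato- Treg, against 6.50, 5.92 and 7.73 in Tconv. Its groups came within 0.03 of each other but did not overlap (log2 fold change 1.54, SE 0.47, adjusted p = 0.0116), and the call ended without tdTomato- replicate D (adjusted p = 0.0651) or Tconv replicate B (0.0648). Fosl2 was 6.45, 6.14 and 6.37 in tdTomato- Treg and 5.71, 5.40 and 6.01 in Tconv, again without overlap (0.61, SE 0.13, adjusted p = 0.000819).

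Jun followed, at 8.87, 8.64 and 9.34 log2 CPM in tdTomato- Treg and 6.59, 5.85 and 7.70 in Tconv. All tdTomato- libraries were above all Tconv libraries (log2 fold change 2.24, SE 0.38, adjusted p = 0.000121, a 4.71-fold difference). Within letters A, B and D the difference was 2.28, 2.79 and 1.64. Jund was 7.93, 7.70 and 8.09 in tdTomato- Treg and 7.15, 6.50 and 7.41 in Tconv, also without overlap (0.89, SE 0.22, adjusted p = 0.00282). Junb was 8.86, 8.38 and 8.90 in tdTomato- Treg, against 8.20, 7.32 and 8.70 in Tconv. Its Tconv libraries A and B were below every tdTomato- library and Tconv library D was not (log2 fold change 0.64, SE 0.32, adjusted p = 0.111). Single Tconv libraries moved it both ways, to 0.95 without replicate D (adjusted p = 0.0234) and to 0.26 without replicate B (adjusted p = 0.505). Jun, Junb and Jund thus had differences of 2.24, 0.64 and 0.89 in the same libraries, and the differences between the genes were not tested.

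Of the other early response genes, Ier5 had the most even values in tdTomato- Treg. It was 7.20, 7.15 and 7.22 there and 6.52, 6.17 and 6.71 in Tconv, without overlap (log2 fold change 0.72, SE 0.10, adjusted p = 8.2e-06). Btg2 was 7.75, 7.89 and 7.96 in tdTomato- Treg and 7.42, 7.47 and 7.48 in Tconv, a smaller difference with little spread (0.41, SE 0.06, adjusted p = 1.8e-05). Klf6 was 8.35, 7.88 and 8.78 in tdTomato- Treg and 7.41, 7.15 and 8.15 in Tconv, where Tconv library D was above tdTomato- library B (0.77, SE 0.27, adjusted p = 0.0269). Its call ended without any 1 of tdTomato- replicates A and D and Tconv replicates A and B (adjusted p = 0.0590, 0.136, 0.0800 and 0.125). Ier2 was 6.11, 6.10 and 6.20 in tdTomato- Treg and 5.86, 5.51 and 6.13 in Tconv, with Tconv library D inside the tdTomato- range (0.30, SE 0.12, adjusted p = 0.0508). It was 0.45 without Tconv replicate D (adjusted p = 0.00424) and 0.14 without Tconv replicate B (adjusted p = 0.300).

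**Figure D2:**
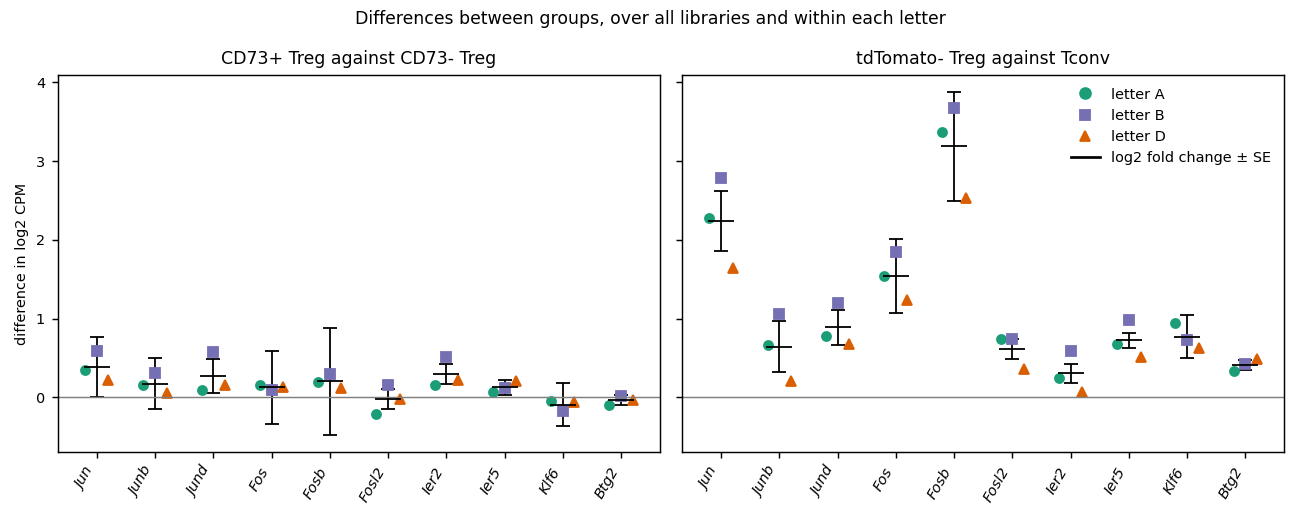
Difference in log2 CPM (vertical axis) for CD73+ against CD73- Treg (left) and tdTomato- Treg against Tconv (right), with the log2 fold change over all libraries as a bar with its SE and the difference within each letter as a symbol. On the right all 10 genes lie above 0 in all 3 letters, the largest being Fosb at 3.19 and Jun at 2.24, and on the left the largest log2 fold change is 0.39, for Jun.

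The sums of some marker lists of other cells also stood higher in tdTomato- Treg, but single markers went both ways. The summed CPM of 11 myeloid and dendritic markers was 63.2 to 75.8 in tdTomato- Treg and 36.3 to 41.1 in Tconv. That of 5 B cell markers was 6.89 to 9.06 in tdTomato- Treg and 3.12 to 4.36 in Tconv, and that of 3 thymic epithelial markers was 5.91 to 8.24 in tdTomato- Treg and 2.65 to 2.92 in Tconv. The sum of 5 erythroid markers was 91.0 to 144 in tdTomato- Treg and 67.2 to 107 in Tconv, which overlap. The stromal and endothelial sum was 153 to 183 in tdTomato- Treg and 168 to 180 in Tconv. Of the 7 myeloid and dendritic markers tested, 4 were called higher in tdTomato- Treg and 1 lower. Itgam, of that list, was 0.18 to 1.07 log2 CPM in tdTomato- Treg and 1.95 to 2.53 in Tconv. The CD8 and double-positive thymocyte markers were split. Their sum was 209 to 225 in tdTomato- Treg and 401 to 414 in Tconv, but Themis made up 52.1% to 58.0% of it in tdTomato- Treg and 76.6% to 76.9% in Tconv. Of the 9 tested, 3 were called higher in tdTomato- Treg (Nkg7, Arpp21 and Rag1, by 3.94, 1.19 and 1.38 on the log2 scale) and 3 lower. These cells can express early response genes themselves, and their part in the differences was not tested.

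The replicate letter separated these genes more sharply than it did most genes. With group means held in the model, 7 of the 10 differed between the letters (moderated F test, adjusted p under 0.05), beside 2.44% of all 11167 genes tested in both tables. Ranked by p-value among all genes, Fos was at place 3, Fosb at 4, Klf6 at 6, Junb at 15, Jun at 20, Jund at 27 and Fosl2 at 157. Ier2, Ier5 and Btg2 did not pass (adjusted p = 0.0719, 0.154 and 0.149). Without the intensity trend in the fit 4 passed, Junb, Fos, Fosb and Klf6.

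The direction was shared. In 9 of the 10 genes the letter D library was the highest in all 4 groups, beside 2.05% of all genes, and Fosl2 was the exception, with letter D highest in 3 groups. Letter B was lowest in all 4 groups for Jun, Junb, Jund, Fos, Fosb and Klf6, beside 4.17% of all genes. The median difference of D minus B was 0.81 on the log2 scale over the 10 genes and −0.0025 over all genes.

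Fosb spread most, with letter D above letter B by 2.28 (SE 0.12) and above letter A by 1.67 (SE 0.12). Fos was 1.60 (SE 0.08) higher in D than in B, and Jun 1.26 (SE 0.11). The 1.60 of Fos stands beside its difference of 1.54 between tdTomato- Treg and Tconv. Junb was higher in D than in B by 1.05 (SE 0.08), Klf6 by 0.93 (SE 0.05), Jund by 0.68 (SE 0.07) and Fosl2 by 0.35 (SE 0.07). Ier2 was 0.30 higher (SE 0.07), Ier5 0.21 higher (SE 0.06) and Btg2 0.04 higher (SE 0.04). The genes thus ran from Fosb, with the widest spread, to Btg2, whose D minus B was about its SE, although Btg2 was past the threshold between tdTomato- Treg and Tconv.

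D minus B passed the threshold in 8 genes (all but Ier5 and Btg2), beside 2.74% of all genes. A minus B passed in 6, beside 1.98%, and D minus A passed in Jun, Fos, Fosb and Klf6, beside 0.206%. Fosl2 lost its call in the F test without CD73+ replicate D (adjusted p = 0.0639), CD73- replicate B (0.120) or D (0.0577), or Tconv replicate B (0.0898) or D (0.0698). It also lost it within the 6 libraries of either table (0.153 and 0.333). Ier2 passed without CD73+ replicate B (0.0305), tdTomato- replicate B (0.0280) or tdTomato- replicate D (0.0407). Jun, Junb, Jund, Fos, Fosb and Klf6 passed within either table.

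**Figure D3:**
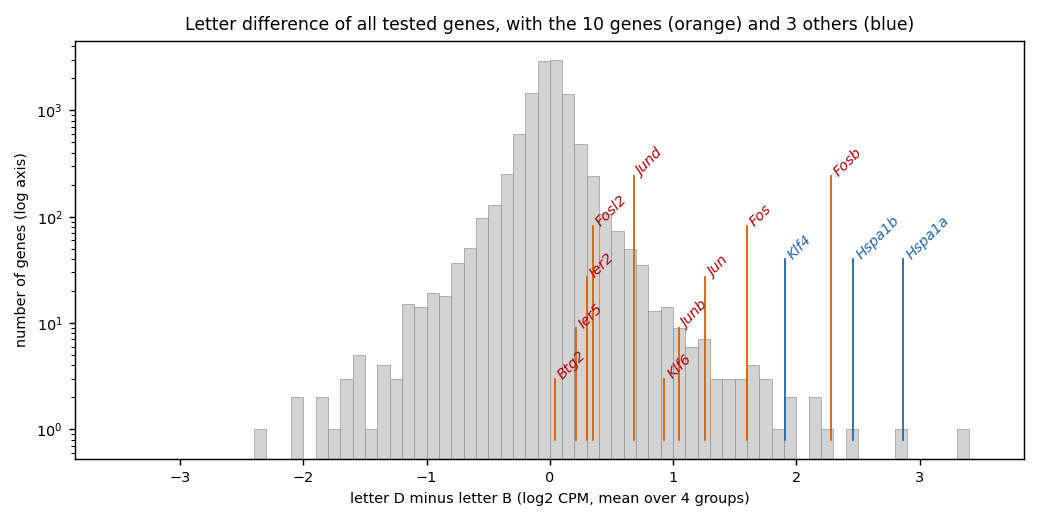
Number of genes (vertical axis, log scale) by the difference of letter D minus letter B averaged over the 4 groups (horizontal axis, log2 CPM), for all 11167 genes, with orange lines at the 10 genes and blue lines at Klf4, Hspa1a and Hspa1b; line heights carry no value. Fosb lies at 2.28, Fos at 1.60 and Jun at 1.26, and Btg2 lies at 0.04, near the median of all genes.

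The spread over the letters was not the same in every group. For Jun, D minus B was 1.06 in CD73+ Treg, 1.43 in CD73- Treg, 0.70 in tdTomato- Treg and 1.85 in Tconv. For Fosb it was 2.35, 2.52, 1.55 and 2.69 in the same groups. For Junb it was 1.01, 1.27, 0.52 and 1.38. Tconv had a larger D minus B than tdTomato- Treg in 9 of the 10 genes, Btg2 being the exception (0.07 in tdTomato- Treg and 0.01 in Tconv). With 1 library per letter and group, this difference between groups was not tested. The same library values, by arithmetic, make the tdTomato- Treg against Tconv difference of those 9 genes smaller within letter D than within letter B. For Ier2 it was 0.25, 0.59 and 0.07 in letters A, B and D and for Junb 0.66, 1.06 and 0.20.

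**Figure D4:**
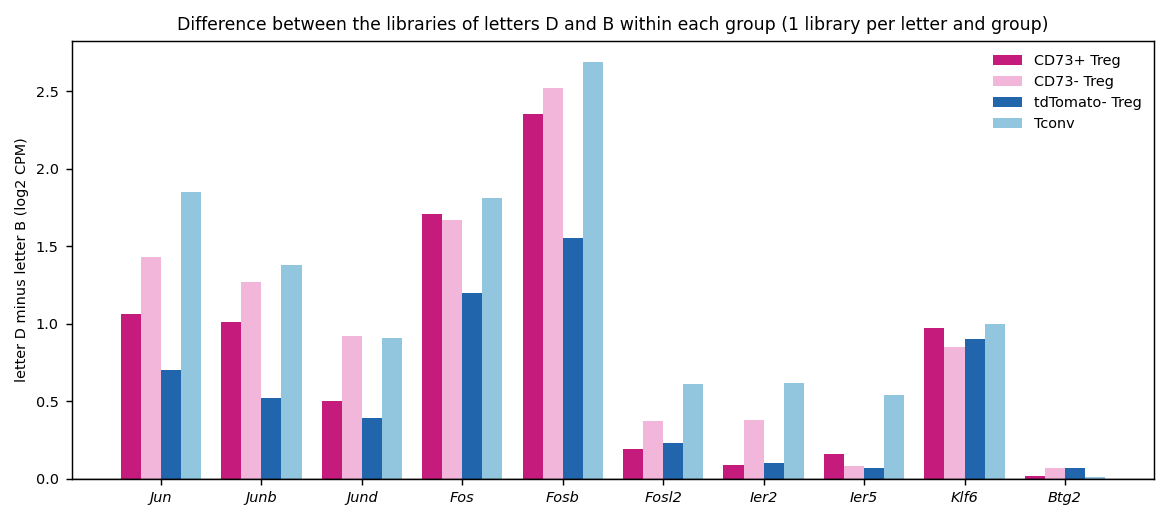
Difference of letter D minus letter B (vertical axis, log2 scale) for each of the 10 genes within each of the 4 groups, 1 library per letter and group. For Jun the bars are 1.06, 1.43, 0.70 and 1.85 in CD73+, CD73- and tdTomato- Treg and Tconv, and in 9 genes the Tconv bar is above the tdTomato- bar.

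Heat shock genes, which are induced by protein damage and warming, moved with the letters as well. Of 12 tested, 8 differed between the letters in the F test, beside 2.44% of all genes, with D minus B above 0 in 6 and below 0 in 2. Each adjusted p in this paragraph is that of the F test over the 3 letters, not of D minus B alone. Hspa1a was 2.87 higher in letter D than in letter B (SE 0.09, adjusted p = 1.1e-13) and Hspa1b 2.46 higher (SE 0.08, adjusted p = 1.8e-13), 2 near-identical copies whose reads cannot be told apart with certainty, and they held places 1 and 2 among all genes. Dnajb1, a co-chaperone, was 0.44 higher (SE 0.05, adjusted p = 4.2e-06). Not all moved up. D minus B was −0.26 for Hspd1 (adjusted p = 0.0086) and −0.01 for Hspa8 (SE 0.04, adjusted p = 0.036), chaperones that are also made without stress. For Hspa8, D minus B was within its SE, while D minus A was 0.15. Leaving out single libraries ended the calls of Hspd1 (adjusted p up to 0.0827) and Hspa8 (up to 0.185). None of the 7 myeloid, 2 B cell and 1 thymic epithelial markers that could be tested passed between the letters, and the myeloid sum was highest in letter D in 2 of the 4 groups and lowest in letter B in 3. The stromal and endothelial sum, of 2 or 3 measured markers and 153 to 263 CPM, was highest in letter D in 3 groups and lowest in letter B in 4. It was almost wholly Pecam1, at 7.25 to 8.04 log2 CPM, as Col1a1 and Cdh5 reached 1.24 at most. The sum is thus close to a reading of 1 gene, and which cells that gene came from was not tested. Pecam1, an adhesion gene and the 1 marker of that list tested, passed (D minus B 0.21, adjusted p = 0.018), and 1 erythroid marker passed with D minus B below 0. With each library centred on its median, or with quantile normalisation, 7 of the 10 genes still differed between the letters. What the letter stands for, and the part of handling or of temperature in it, was not tested.

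None of the 12 heat shock genes passed between CD73+ and CD73- Treg. In tdTomato- Treg against Tconv 1 rose, the co-chaperone Bag3 (2.70, SE 0.43, adjusted p = 5.4e-05), and 3 fell, namely Dnaja1 (−0.33, adjusted p = 0.0055, and 0.0681 without the 4 libraries of letter B), Hsp90ab1 (−0.18, adjusted p = 0.0063) and Hspd1 (−0.28, adjusted p = 0.037, and up to 0.211 with a library left out). The log2 fold changes of Hspa1a and Hspa1b for the same groups were −0.39 (adjusted p = 0.73) and −0.53 (adjusted p = 0.58). Their SD over 3 libraries was 1.30 and 1.12 in tdTomato- Treg and 1.49 and 1.27 in Tconv. Between these groups 26.4% of all genes rose and 25.7% fell. The part of handling in these differences was not tested.

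Other early response genes followed the letters and the groups in part. Of 33 measured, such as transcription factors, phosphatases and RNA decay factors of the same response, none passed between CD73+ and CD73- Treg, and 20 rose and 3 fell in tdTomato- Treg against Tconv, with a median log2 fold change of 0.58. Of all genes, 26.4% rose and 25.7% fell. Rgs1, a regulator of G protein signalling, rose by 3.51 (SE 0.09, adjusted p = 5.1e-15), Trib1, a pseudokinase, by 2.0 (SE 0.10, adjusted p = 3.0e-11), and Nfkbia, the NF-kB inhibitor, by 1.38 (SE 0.08, adjusted p = 2.9e-10). Dusp6, a phosphatase of ERK, fell by 1.14 (SE 0.10, adjusted p = 6.3e-08) and Egr1, a zinc finger factor induced by ERK, fell by 0.32 (SE 0.08, adjusted p = 0.0032, and 0.0559 without the 4 libraries of letter B). Zfp36l2, an RNA decay factor, fell by 0.29 (SE 0.09, adjusted p = 0.0097) and was not past the threshold without tdTomato- replicate B (adjusted p = 0.0625) or without the 4 libraries of letter D (0.0720). Over the letters 17 of the 33 differed in the F test, beside 2.44% of all genes, all with D minus B above 0. They were led by the kinase Sik1 (D minus B 1.12, SE 0.07, F test adjusted p = 1.8e-09), the RNA decay factor Zfp36 (0.75, SE 0.05, F test adjusted p = 3.5e-08) and the phosphatase subunit Ppp1r15a (0.76, SE 0.05, F test adjusted p = 5.1e-08).

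Other basic leucine zipper genes, which can pair with or compete with AP-1, were split. Of 15 measured, none passed between CD73+ and CD73- Treg, and 6 rose and 6 fell in tdTomato- Treg against Tconv, with a median of 0.0033. That is 12 of 15 in either direction, beside 52.1% of all genes. Maf rose by 4.05 (SE 0.13, adjusted p = 1.1e-13), Nfil3 by 3.49 (SE 0.31, adjusted p = 5.3e-08) and Crem, a repressor at cyclic AMP elements, by 1.06 (SE 0.10, adjusted p = 1.9e-07). Nfe2l2, the oxidative stress factor NRF2, fell by 1.35 (SE 0.08, adjusted p = 6.7e-10). Bach2, a repressor that competes for AP-1 sites in T cells, fell by 0.60 (SE 0.05, adjusted p = 1.4e-08) and Bach1 by 0.34 (SE 0.07, adjusted p = 0.00034). Over the letters 3 differed in the F test, namely Maff, Mafk and Atf4 (adjusted p = 0.00015, 0.00064 and 0.035). Their D minus B was 1.47, 0.38 and 0.20, and Atf4 lost its call without most single libraries (F test adjusted p up to 0.145). Maff and Mafk were not past the threshold without the intensity trend (adjusted p = 0.0742 and 0.183) or in the tdTomato- Treg and Tconv libraries alone (0.132 and 0.367).

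Genes upstream of AP-1, such as the MAP kinases, the serum response factor and its partners, were measured in 27 cases, none of which differed between the letters. Between CD73+ and CD73- Treg, Srf, the serum response factor, was up by a log2 fold change of 0.36 (SE 0.09, adjusted p = 0.0485), and Nfatc3, a partner of AP-1, fell by 0.17 (SE 0.04, adjusted p = 0.0485). Both calls sat at the threshold, since Srf passed with only CD73- replicate D left out and with none of the other 5, and Nfatc3 passed with none of the 6 left out (adjusted p over all alternatives 0.0164 to 0.436 for Srf and 0.0159 to 0.369 for Nfatc3). In tdTomato- Treg against Tconv 7 rose and 8 fell, a share of the 27 near that of all genes (26.4% up and 25.7% down). The changes were led by Elk3 (0.63, SE 0.06, adjusted p = 3.3e-07), Ndfip1 (0.49, SE 0.06, adjusted p = 2.2e-06) and Mrtfb (0.45, SE 0.06, adjusted p = 3.5e-06) upward. Downward were the kinase Rps6ka3 (−0.62, SE 0.06, adjusted p = 1.1e-07), Elk4 (−0.43, SE 0.04, adjusted p = 3.9e-07) and Prkcq, the kinase of the T cell receptor pathway (−0.35, SE 0.04, adjusted p = 4.0e-06). These 6 differences were smaller than those of Jun, Fos and Fosb.

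Among 11157 genes tested for likeness, the genes whose deviations from the group mean over the 12 libraries most resembled the mean deviation of the 10 were Klf4 (Pearson r 0.99), Cracr2a (0.98), Mpp7 (0.97), Fam193b (0.97), Coq10b (0.97), Ppp1r15a (0.96), Hspa1a (0.96), Sfpq (0.96), Hspa1b (0.95) and H2-Q4 (0.95). All genes of a library share its letter, depth and scaling, so correlations of this kind only describe the libraries. They do not give the size of a change. Cracr2a had a D minus B of 0.17 and did not pass over the letters (F test adjusted p = 0.148). Klf4, a zinc finger factor of the same family as Klf6, was 4.05, 3.14 and 5.06 in CD73+ Treg of letters A, B and D, 3.74, 2.77 and 4.79 in CD73- Treg, 5.12, 4.36 and 5.66 in tdTomato- Treg and 1.86, 1.21 and 3.61 in Tconv. It thus had letter D highest and letter B lowest in all 4 groups and rose in tdTomato- Treg against Tconv (log2 fold change 2.82, SE 0.57, adjusted p = 0.00057). Among the 10 themselves, Jun correlated with the mean of the other 9 at 0.99, Fos at 0.98, Fosb at 0.96, Klf6 at 0.96, Junb at 0.94, Jund at 0.92, Fosl2 at 0.87, Ier2 at 0.85, Ier5 at 0.79 and Btg2 at 0.30. Btg2 thus stood apart from the other 9 within groups.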

How the data were processed

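RNA was extracted with TRIzol and sequenced from KAPA RNA HyperPrep libraries, per the labels' protocols. The submitters' processing notes list the tools STAR, RSEM and limma with mm10, whose versions are not given in the sources used here. As deposited by the authors, expression is log2 CPM per gene and library (offset 0.5 count, read from the lowest values), filtered and normalised separately in 2 tables that were then merged by gene ID. The deposited log2 fold changes, p-values and t statistics (a score) are the authors' own. Strand use in counting is not stated.

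Here limma 3.58.1 in R 4.3.3 was fitted to the deposited log2 values of all 12 libraries, with 4 group means and an intensity trend. A gene entered when 3 or more libraries had a log2 CPM of 0 or above. P-values are two-sided and were corrected (Benjamini-Hochberg) over every gene of a comparison. Differences between letters were tested with a moderated F test over genes in both tables. SE is that of the fit. The procedure was tested on simulated data. The 10 genes, the further lists, the motifs and the tests were chosen with earlier results of these data known. Besides the 10, up to 3 genes per direction and list by p-value and the 10 genes most like them are named.

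No library appeared to be deposited more than 1 time. Pairing by letter was checked on 9942 genes, by correlating deviations from group means. For CD73+ with CD73- Treg the same-letter correlations were 0.146 to 0.266. As each exceeded 0.1, the letter was taken to pair them. On all 11167 genes tested over the letters they were 0.0583 to 0.110, so the pairing rests on the genes used. The main fit had no term for the letter, and the fit with that term is given beside it as the replicate block. The limit of 3 counts covers counting error only.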

Additional observations from a re-analysis of the deposited data

How the results depend on the processing

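Over the alternatives run (low-value filter, scaling, intensity trend, replicate block, libraries in the fit and left out), no gene past the threshold changed direction except Hspa8 over the letters. Between CD73+ and CD73- Treg the number of the 10 genes past the threshold was 0, but 1 with the replicate block (Ier2), which was 0 with the block and without CD73- replicate B or the 4 libraries of letter B (both added after seeing the data; Srf and Nfatc3 then missed the threshold, with adjusted p of 0.0582 to 0.0834), and 0 to 0 when single libraries were left out. Over all genes that count was 276, against 658 with the block, 107 without the trend, 151 with only the groups compared, 26 without letter A, 46 without letter D and 101 to 369 with a library left out. With a library left out the log2 fold changes, none past the threshold, were −0.14 to 0.05 for Fosl2, −0.067 to 0.013 for Btg2, −0.32 to 0.17 for Klf6, 0.02 to 0.74 for Jun, −0.18 to 0.46 for Junb, −0.29 to 0.56 for Fos, −0.45 to 0.89 for Fosb and −0.015 to 0.45 for Jund. Fosl2 was 0.07 without letter A. For tdTomato- Treg against Tconv the count of 8 was 6 to 10 with a library left out. Without the trend it was 6, as Fos and Klf6 lost their calls (adjusted p = 0.0588 and 0.0974), and without letter A they lost them too (0.0848 and 0.184). Junb and Ier2 passed without letter D (0.0406 and 0.0125), Junb without letter B (0.0217) and Ier2 with the stricter low-value filter (0.0497). Same-letter libraries of these groups correlated at 0.054 to 0.117, so the letters were not treated as pairing them; with the block all 10 passed, beside 55.7% of all genes (Junb 1.65e-05, Ier2 0.0061), and every library but Tconv replicate D correlated best with its own letter, a hint from the data. Over the letters the count of 7 was 6 to 8 with a library left out and 4 without the trend, where Jun, Jund and Fosl2 lost their calls (0.0651, 0.115 and 0.296); the cause was not tested. The count over all genes was 272, against 32 without the trend, 37 in the tdTomato- Treg and Tconv libraries alone and 112 to 701 with a library left out. Hspa8, with D minus B of −0.01, was −0.050 to 0.021 with a library left out, 0.025 with quantile normalisation and 0.01 in the tdTomato- Treg and Tconv libraries alone.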
